A study of Sus scrofa with 8 samples.

Results

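KLF2, KLF4 and KLF6 are Kruppel-like factors (KLF), transcription factors that bind GC-rich DNA through zinc fingers at the end of the protein. They were taken as the rows with these gene names in the table of normalized counts per pig, and make up 3 of the 458 genes with values per pig and of the 10710 genes with a mean count. Fat under the skin of the back was sampled from 4 pigs of the Alentejano breed (AL) and 4 of the Bisaro breed (BI), both local to Portugal, and 1 RNA library was sequenced per pig. The pigs were adult barrows of pure breed. Both breeds had outdoor access and as much of a commercial feed as each animal would eat, with no difference in management, and the labels give a carcass weight of 150 kg. The labels name no treatment that differed between the breeds. The AL pigs had been on trial for longer than the BI pigs, so that breed and time on feed cannot be told apart, and no age beyond adult is given in the sources used here. Each pig is named by its breed and replicate number, as AL44 or BI25.

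A normalized count is the number of reads counted on a gene divided by the size factor of the pig, which scales libraries of different depth to each other. Values were taken as log2(normalized count + 1), and the log2 fold change (log2 FC) was their AL mean minus their BI mean, so that a negative value is lower in AL. The breeds were compared with a two-sided exact permutation test, in which 4 pigs against 4 cannot give a p below 0.029. These 458 genes were deposited with values per pig because the study had called them different between the breeds in the same pigs, and the test therefore describes how far apart the pigs lay and is not independent. Division by the size factor could be undone to whole reads for 100% of these values. On the genes with values per pig, the library with the fewest reads had 359708 and that with the most 883622. The size factors ran from 0.675 to 1.10 in AL and from 1.06 to 1.46 in BI (exact permutation test, p = 0.057).

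KLF2 and KLF4 are best known in the endothelium, where blood flow induces them through the kinase MAPK7 (ERK5) and MEF2 factors and where they favour a quiet, antithrombotic vessel wall. In preadipocytes KLF2 restrains differentiation by acting on the PPARG promoter, whereas KLF4 acts early in adipogenesis upstream of CEBPB, and KLF6 favours it by repressing the preadipocyte gene DLK1. All are also among the genes that many cells induce quickly after stress or mechanical stimulation.

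The 3′ end of the coding sequence of each member encodes its last zinc finger and is shown to set the members side by side. The last 84 coding bases before the stop codon are shown in the coding direction from Sscrofa11.1 (RefSeq annotation), with capitals for the 49 bases identical in all 3 genes.
KLF2: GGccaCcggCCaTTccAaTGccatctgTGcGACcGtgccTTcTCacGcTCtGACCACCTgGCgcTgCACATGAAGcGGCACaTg
KLF4: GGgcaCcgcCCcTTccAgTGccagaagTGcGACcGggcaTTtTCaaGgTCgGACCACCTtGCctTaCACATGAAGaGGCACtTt
KLF6: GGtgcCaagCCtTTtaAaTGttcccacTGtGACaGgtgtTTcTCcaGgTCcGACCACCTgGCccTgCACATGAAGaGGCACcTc
They lie at chr2:61271189-61271272 on the minus strand, at chr1:248605729-248605812 on the minus strand and, divided over 2 exons, at chr10:66493564-66494901 on the plus strand. In this stretch KLF2 and KLF4 were identical at 76.2% of the bases, KLF2 and KLF6 at 66.7%, and KLF4 and KLF6 at 65.5%. The longest run of identical bases between any exons of the members was 17 bases for KLF2 and KLF4, 15 for KLF4 and KLF6 and 12 for KLF2 and KLF6, so that no read-long stretch was shared between them.

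The 250 bases before the start of each gene are shown because all members were lower in the same breed. They are written 5′ to 3′ on the strand of the gene, from Sscrofa11.1, with capitals for matches to a GC box, a CCAAT box or a MEF2 site.
KLF2: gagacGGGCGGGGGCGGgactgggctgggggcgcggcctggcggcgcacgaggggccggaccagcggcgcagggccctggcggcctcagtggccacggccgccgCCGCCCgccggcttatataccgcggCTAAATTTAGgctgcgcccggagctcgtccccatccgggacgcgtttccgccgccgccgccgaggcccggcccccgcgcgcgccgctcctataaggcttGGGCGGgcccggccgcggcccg
KLF4: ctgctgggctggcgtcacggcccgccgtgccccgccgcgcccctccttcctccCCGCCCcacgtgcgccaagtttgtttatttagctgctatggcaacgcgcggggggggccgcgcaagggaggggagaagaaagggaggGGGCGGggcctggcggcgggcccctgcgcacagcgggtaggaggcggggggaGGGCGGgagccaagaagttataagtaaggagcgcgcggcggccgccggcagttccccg
KLF6: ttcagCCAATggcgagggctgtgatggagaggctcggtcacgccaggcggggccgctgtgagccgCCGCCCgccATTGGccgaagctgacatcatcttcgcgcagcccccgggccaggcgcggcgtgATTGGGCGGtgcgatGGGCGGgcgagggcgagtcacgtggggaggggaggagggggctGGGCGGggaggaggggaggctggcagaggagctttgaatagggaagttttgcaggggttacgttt
These windows are chr2:61273038-61273287 (minus strand), chr1:248609575-248609824 (minus strand) and chr10:66488195-66488444 (plus strand). Their GC content was 80.0%, 73.2% and 68.8%, against a median of 57.6% over the same window of 19556 annotated genes. The GC box, the letters GGGCGG on either strand, is the core of the sites bound by SP and KLF proteins. It occurred 4 times before KLF2, 3 times before KLF4 and 4 times before KLF6, and 45.9% of all windows held at least 1. The KLF2 window alone of the 3 held a MEF2 site, the kind of site through which flow signals reach this gene, 121 bases before its start, and 0.470% of all windows held one. It also held an EGR site (GCGGGGGCG on either strand, in 5.68% of windows) that overlaps its most distant GC boxes. The KLF6 window held 3 CCAAT boxes (CCAAT on either strand, in 31.9% of windows), 1 of which overlaps a GC box. The shortened cyclic AMP response element TGACG, on either strand, occurred once before KLF4 and in 19.6% of windows. No match was found in the 3 windows to the full element TGACGTCA, to the AP-1 sites TGAGTCA and TGACTCA, to the CArG box, to CCACCC or to TATAAA, which occurred in 1.70%, 2.90%, 1.31%, 30.5% and 9.77% of windows.

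KLF2, KLF4 and KLF6 all had lower mean counts in AL fat than in BI fat, by 2.32-fold, 2.14-fold and 2.66-fold on the log scale. The values of the breeds were fully separated for KLF2 and KLF4, and overlapped by 1 pig of each breed for KLF6. That is 2 of 3 members without overlap, against 79.5% of the 458 genes and 73.3% of the 195 genes that were lower in AL. Genes both lower in AL and without overlap made up 31.2% of the 458. A lower level in a piece of fat tissue may mean fewer cells that express the gene or less RNA per cell, which cannot be told apart in these data.

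**Figure D1:**
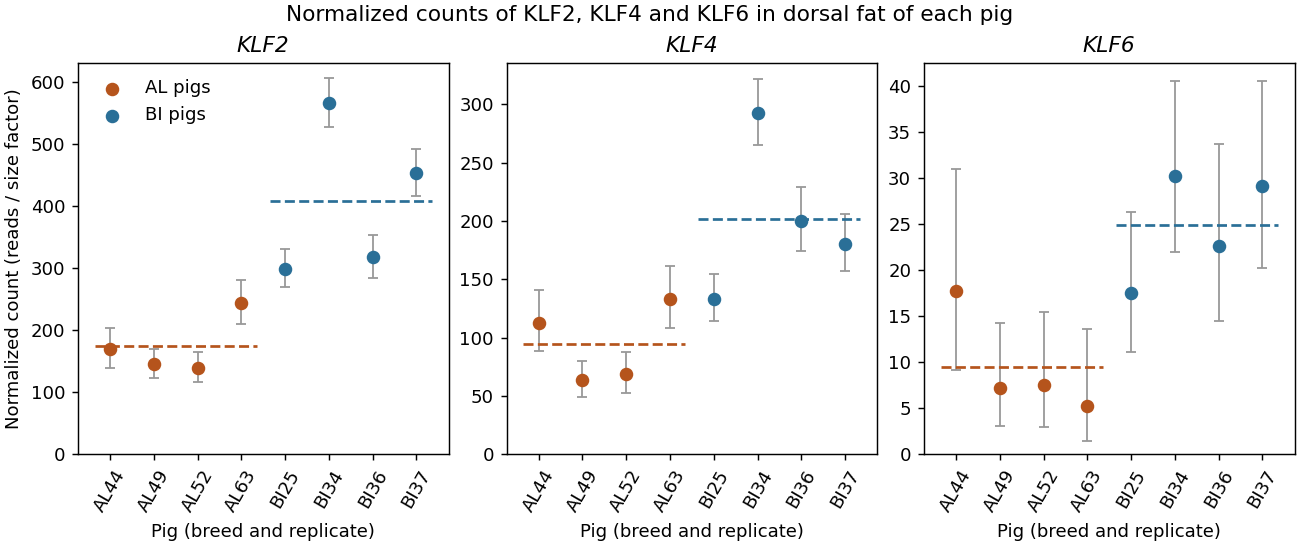
Normalized counts of KLF2, KLF4 and KLF6 (vertical axes, each from 0) in the 4 AL and 4 BI pigs. Points are pigs, grey bars are exact Poisson 95% intervals of the reads (counting error only), and dashed lines are breed means; the BI pigs lie above the AL pigs for KLF2, touch them for KLF4 at AL63 and BI25, and overlap them for KLF6 at AL44 and BI25.

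KLF2 (ENSSSCG00000038911), which has 3 exons at chr2:61270733-61273037 on the minus strand, was the most abundant of the 3. Its normalized counts were 169, 145, 139 and 243 in AL44, AL49, AL52 and AL63. In BI25, BI34, BI36 and BI37 they were 299, 565, 317 and 452. The lowest BI pig stood 56.0 normalized counts above the highest AL pig, AL63, and the exact Poisson 95% intervals of these pigs, 209 to 281 in AL63 and 270 to 330 in BI25, overlapped only at their ends. KLF2 averaged 174 ± 47.9 in AL and 409 ± 125 in BI (SD, n = 4 each). KLF2 was overexpressed in BI, with a log2 FC of −1.21 ± 0.28 (SE; exact permutation test, two-sided, p = 0.029). The call was not made without BI34 or without BI37, where the log2 FC was −1.04 and −1.15 (exact permutation test, p = 0.057), although the remaining pigs still did not overlap.

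KLF4 (ENSSSCG00000005437), annotated at chr1:248604817-248609574 on the minus strand with transcripts of 4 and 5 exons, had about the same breed difference with a narrower edge. Its normalized counts were 113, 63.5, 68.8 and 133 in AL44, AL49, AL52 and AL63. In BI25, BI34, BI36 and BI37 they were 133, 293, 200 and 180. AL63 and BI25 were nearly equal, only 0.251 normalized counts apart where 1 read is worth 1.33 in AL63 and 0.765 in BI25. The ordering of these 2 pigs was therefore below the resolution of a read, and 1 more read in AL63 would have made the breeds overlap. KLF4 averaged 94.4 ± 33.7 in AL and 201 ± 67.0 in BI (SD, n = 4 each). KLF4 was overexpressed in BI, with a log2 FC of −1.10 ± 0.35 (SE; exact permutation test, two-sided, p = 0.029). Leaving out AL63 kept the call, whereas leaving out any other pig gave a log2 FC between −1.28 and −0.90 and a p of 0.057 (exact permutation test).

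KLF6 (ENSSSCG00000035212), with 5 exons at chr10:66488445-66497830 on the plus strand, was counted on few reads. There were 12, 8, 7 and 4 reads in AL44, AL49, AL52 and AL63 and 23, 44, 24 and 35 in BI25, BI34, BI36 and BI37. The normalized counts were 17.8, 7.25, 7.53 and 5.31 in AL and 17.6, 30.2, 22.7 and 29.2 in BI, in the same order of pigs. The lowest BI value minus the highest AL value was −0.188 normalized counts (BI25 and AL44), less in size than the worth of 1 read in either pig, and the other 3 AL pigs lay below every BI pig. KLF6 averaged 9.47 ± 5.63 in AL and 24.9 ± 5.91 in BI (SD, n = 4 each), with a log2 FC of −1.41 ± 0.38 (SE; exact permutation test, two-sided, p = 0.057). This difference did not pass the exact test, and without AL44 the log2 FC was −1.73 and passed (exact permutation test, p = 0.029). The 4 reads of AL63 have an exact Poisson 95% interval of 1.45 to 13.6 normalized counts, which covers AL49 and AL52 but no BI pig.

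Models that share the spread over all 458 genes called each member. All 458 genes had been called different in the same pigs before, so that the adjusted p-values have no valid null. They are given as description only. With limma on the log2 values, the Benjamini-Hochberg adjusted p was 0.00549 for KLF2, 0.0102 for KLF4 and 0.00595 for KLF6. With the quasi-likelihood test of edgeR on the recovered reads it was 0.00383, 0.00744 and 0.00774, and with DESeq2 0.000216, 0.00234 and 0.00439. The models called 455 (limma), 458 (edgeR) and 458 (DESeq2) of the 458 genes, so that a call by them does not set the KLF genes apart from the table they were taken from.

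The breed difference of the members was of middle size. Ranked by the size of the log2 FC among the 195 genes lower in AL, KLF6 was number 72, KLF2 number 114 and KLF4 number 142, and the median of the 195 genes was −1.29. By mean normalized count, 151 of the 458 genes stood above KLF2, 198 above KLF4 and 414 above KLF6. The SD of the log2 values within a breed was 0.37 (AL) and 0.43 (BI) for KLF2 and 0.52 and 0.47 for KLF4, near the median of 0.41 over the 458 genes. For KLF6 it was 0.68 in AL and 0.35 in BI.

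**Figure D2:**
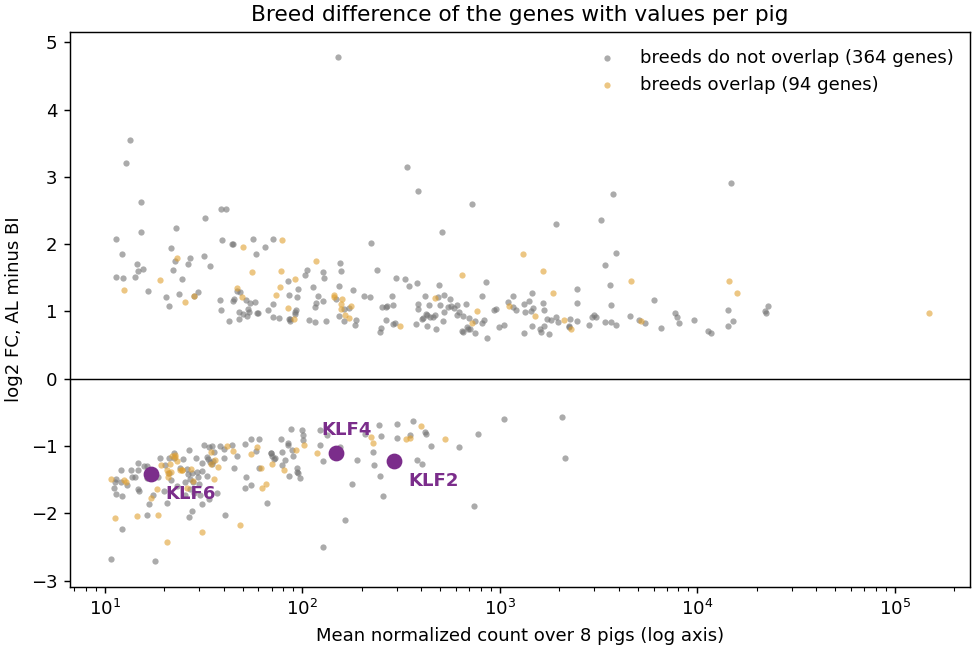
Each point is 1 of the 458 genes with values per pig, with its mean normalized count over 8 pigs (horizontal, log axis) and its log2 FC, AL minus BI (vertical). Grey genes do not overlap between the breeds (364) and yellow genes do (94); KLF2, KLF4 and KLF6, in purple, lie at −1.21, −1.10 and −1.41, and no gene lies near 0 because the table holds only genes called different.

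The members were then compared with each other inside each pig, since a ratio of 2 genes in 1 library does not depend on its size factor apart from the pseudocount. The normalized count of KLF2 was 150%, 229%, 202% and 183% of that of KLF4 in AL44, AL49, AL52 and AL63, and 225%, 193%, 158% and 251% in BI25, BI34, BI36 and BI37. The breeds overlapped, and the log2 ratio of KLF2 to KLF4 was lower in AL by an amount well inside the spread (−0.12 ± 0.19, SE; exact permutation test, p = 0.54). KLF6 was between 2.19% and 10.5% of KLF2 in the AL pigs and between 5.35% and 7.14% in the BI pigs. The proportion spanned a narrow range in BI, while both the highest and the lowest of the 8 proportions were in AL, in AL44 and AL63. The proportions of AL44 and AL63 rest on 12 and 4 KLF6 reads, against 23 to 44 in the BI pigs. Whether the AL range exceeds counting error was not tested. The breed difference of the log2 ratio of KLF6 to KLF2 was −0.19 ± 0.44 (SE, exact permutation test, p = 0.69). For KLF6 to KLF4 the proportion ran from 4.0% to 15.8% in AL and from 10.3% to 16.2% in BI, with a difference of −0.31 ± 0.42 (SE; exact permutation test, p = 0.66). Adjusted over these 3 pairs, each p was 0.686 (exact permutation tests, Benjamini-Hochberg), so that no difference in the breed effect between members was detectable with these pigs. Both KLF6 differences turned positive, to 0.31 and 0.16, with a pseudocount of 10, and to 0.18 and 0.074 without AL63.

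The order of the pigs was partly common to the members. BI34 had the highest and BI25 the lowest BI value of all 3 genes. AL63 had the highest AL value of KLF2 and KLF4 but the lowest of KLF6, where AL44 stood highest. KLF2 and KLF4 both placed AL44 second in AL. Likeness over the 8 pigs was measured as the root mean square (RMS) difference of the log2 values after each gene was centred on its own mean, where 0 is the same pattern. KLF2 and KLF4 differed by 0.241, which made KLF4 the 5th nearest of the 457 other genes to KLF2 and KLF2 the 3rd nearest to KLF4. The median of the same distance to the 194 other genes lower in AL was 0.548 from KLF2 and 0.590 from KLF4. KLF6 differed from KLF2 by 0.547 and from KLF4 by 0.539, and was their number 97 and number 74 nearest gene. All these distances include the breed difference for which the genes had been chosen.

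The genes nearest to KLF2 were CARD19 (0.212), PPP1R15A (0.222), STAT3 (0.233) and NT5C (0.234). PPP1R15A directs a phosphatase to the initiation factor eIF2alpha in the stress response, STAT3 carries cytokine signals to the nucleus, and NT5C is a cytosolic nucleotidase. STAT3 averaged 37.8 ± 4.48 normalized counts in AL and 72.2 ± 14.0 in BI (SD, n = 4 each), a log2 FC of −0.90 ± 0.16 (SE). The genes nearest to KLF4 were INTS11 (0.163), NT5C (0.205), KLF2, DFFB (0.245) and FOS (0.250). INTS11 is the nuclease of the Integrator complex, DFFB the DNase that caspases release in apoptosis, and FOS the AP-1 subunit. INTS11, the gene most like any member, averaged 234 ± 71.9 normalized counts in AL and 574 ± 199 in BI (SD, n = 4 each), a log2 FC of −1.27 ± 0.35 (SE). KLF6 had no neighbour as near. COG6, a subunit of a Golgi tethering complex, stood at 0.265, DIDO1 at 0.326, the unnamed gene ENSSSCG00000038575 at 0.336, the transcription factor RFX1 at 0.367 and ENSSSCG00000034338 at 0.374.

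**Figure D3:**
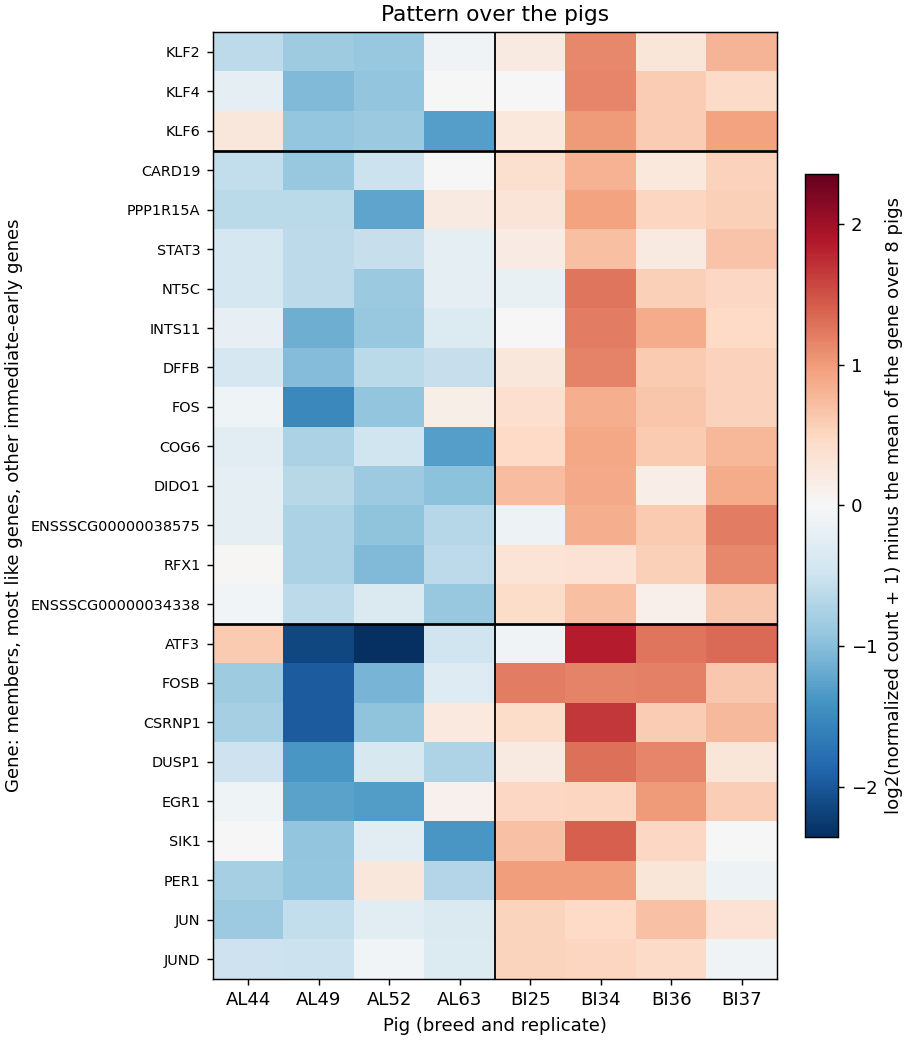
Each cell is log2(normalized count + 1) of a gene (rows) in a pig (columns) minus the mean of that gene over the 8 pigs, red above and blue below it. From the top, the blocks hold the 3 members, the genes most like them, and the other immediate-early genes with values per pig; KLF2 and KLF4 are near their mean in AL63, KLF6 is lowest there, and BI34 is high in all 3 members.

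Genes induced within minutes of a stimulus, the immediate-early genes, had a like direction. Of 41 such symbols other than the KLF genes, which include older names of genes also listed, 33 had a mean count. Values per pig were given for 11, against 4.28% of all 10710 genes, from a list drawn up with earlier results of these data known. All 11 were lower in AL, as were 42.6% of the 458 genes. The breeds did not overlap for 8 of the 11, near the 73.3% of all genes lower in AL, and the median log2 FC of the 11 was −1.28, against 0.83 over all 458 genes and −1.29 over those lower in AL. FOSB, an AP-1 subunit, averaged 65.4 ± 29.2 normalized counts in AL and 264 ± 46.4 in BI (SD, n = 4 each; log2 FC −2.10). The stress factor ATF3 had a log2 FC of −2.17, but AL44 (48.9 normalized counts) exceeded BI25 (29.8), the same pair of pigs that overlapped for KLF6. JUN, the partner of FOS in AP-1, averaged 414 ± 74.6 normalized counts in AL and 828 ± 86.4 in BI (SD, n = 4 each; log2 FC −1.01), without overlap. CSRNP1 had a log2 FC of −1.72, the MAP kinase phosphatase DUSP1 of −1.48, the zinc finger factor EGR1 of −1.28, the kinase SIK1 of −1.28, FOS of −1.21 and PPP1R15A of −1.15. The breeds overlapped for ATF3, for the clock gene PER1 (−1.06) and for the AP-1 subunit JUND (−0.70). FOS, EGR1, FOSB, CSRNP1 and PPP1R15A shared with KLF2 and KLF4 that AL63 and then AL44 were the highest AL pigs. In ATF3 these pigs were also the highest, with AL44 first. JUN, JUND, DUSP1, PER1 and SIK1 did not share this. SIK1 had the same order of AL pigs as KLF6, from AL44 down to AL63 (25.2 normalized counts). The KLF6 values of AL52 and AL49, 7.53 and 7.25 normalized counts, lay less than the worth of 1 read apart. Their order in KLF6 is therefore not resolved.

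Of the regulators that act upstream of KLF2 and KLF4, 11 of 12 had a mean count and none had values per pig, against 4.28% of all 10710 genes. They were thus not among the genes that the study had called different. Only the authors' mean over the 8 pigs is given for them here, which carries no information on a difference between the breeds. It was 25.9 for MEF2D, 8.27 for MEF2A and 7.30 for MEF2C, the MEF2 factors that bind the kind of site found before KLF2, and 369 for PIEZO1, a channel that senses flow. MAPK7 had an authors' mean of 16852, with only 18 genes above it, and the gene overlaps MFAP4 on the opposite strand. PIEZO1 and MEF2C also overlap an annotated gene on the opposite strand. The strand setting of the counting is not given in the sources used here, so that the reads of such overlapping genes cannot be told apart. The nearest genes on the strand opposite to the members lay 27.6 kb (KLF2), 111 kb (KLF4) and 3.48 kb (KLF6) away. These distances do not show on which strand the reads of the members were counted.

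Endothelial genes that KLF2 and KLF4 are known to control likewise had no values per pig, which only 4.28% of all 10710 genes had. Of 15 such symbols, 10 had a mean count, so few that the lack of values per pig says little of them. Among them were S1PR1, a receptor of the vessel wall, with an authors' mean of 103, and NOS3, the endothelial nitric oxide synthase, with 98.0. Of 14 endothelial markers, 11 had a mean count and 3 had values per pig, against 4.28% of all 10710 genes. These 3 did not move one way. TIE1, an endothelial receptor kinase, was lower in AL (13.9 ± 3.44 against 38.9 ± 10.2, SD, n = 4 each, log2 FC −1.41), as was the Notch ligand DLL4 (log2 FC −1.42). EGFL7, a matrix protein that endothelial cells secrete, was higher in AL (log2 FC 0.89), and none of the 3 overlapped between the breeds, as for 79.5% of the 458 genes. The summed normalized counts of these 3 genes, nearly all of them from EGFL7, were 2178 to 3636 in the AL pigs and 1356 to 1992 in the BI pigs. EGFL7 had an authors' mean of 2257, with 177 genes above it. Overlap of EGFL7 with a gene on the opposite strand was not tested. The limit given for MAPK7 may therefore apply to the log2 FC of EGFL7, the only one of the 3 higher in AL, and to these sums. VWF, CLDN5 and EMCN were not matched to a row with a mean count. The part of the number of endothelial cells in the KLF values was not tested.

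Of 19 adipogenic transcription factors, among which KLF genes act, 18 had a mean count and 3 had values per pig, against 4.28% of all 10710 genes. GATA2, which holds cells in the preadipocyte state, was lower in AL (22.7 ± 5.78 against 48.7 ± 9.45, SD, n = 4 each, log2 FC −1.09) without overlap. ID1, an inhibitor of helix-loop-helix factors, was lower (log2 FC −1.40) and CEBPA, a master factor of the late programme, higher (log2 FC 0.95), with overlap between the breeds in both. Of 16 genes of mature adipocytes, 15 had a mean count and 7 had values per pig, against 4.28% of all 10710 genes. Others with a mean count, among them ADIPOQ, PLIN1, LPL and LIPE, were not called by the study. The paper reports ADIPOQ as numerically higher in BI, without significance. The 7 with values per pig were all higher in AL, as were 57.4% of the 458 genes, with a median log2 FC of 1.86. The breeds did not overlap for 5 of these 7, against 84% of the 263 genes higher in AL, and the log2 FC was 2.79 for the desaturase SCD, 1.86 for the fatty acid synthase FASN and 1.10 for the fatty acid carrier FABP4. The KLF genes were thus lower in the breed in which these 7 genes were higher, and whether the 2 differences are related was not tested.

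As a check of the tissue, the authors' mean over all pigs was 1567 for the lipid droplet protein PLIN1, 673 for FABP4 and 173 for the adipokine ADIPOQ, with 1309 genes above the last. PLIN1 overlaps a gene on the opposite strand and carries the same limit as MAPK7, whereas FABP4 and ADIPOQ do not overlap one. The unknown strand setting applies to the counts of FABP4 and ADIPOQ too. A mean count was found for 9 of 11 macrophage markers, 7 of 7 of mural cells, 5 of 7 of fibroblasts and progenitors and 3 of 4 of blood. None of them had values per pig, which only 4.28% of all 10710 genes had, so that this says little of these cells. Of 8 skeletal muscle markers, 5 had a mean count and MYH7 alone had values per pig. MYH7 had 0.907 to 9.30 normalized counts in the AL pigs and 4.72 to 40.5 in the BI pigs, lower in AL as the KLF genes were but with overlap (log2 FC −2.04). Its part in the KLF values was not tested.

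Among the KLF genes of the pig, the members were the only ones with values per pig. Of 18 symbols of the family, 12 had a mean count and 3 of these 12 (25%) had values per pig, against 4.28% of all 10710 genes, a share that says nothing of the family because the members were picked from the genes with such values. KLF1, KLF5, KLF8, KLF14, KLF17 and KLF18 were not matched to a row with a mean count. Per kb of annotated exon, the authors' mean count over the 8 pigs was 180 for KLF2, followed by 89.6 for KLF9, 48.3 for KLF4, 19.1 for KLF13, 16.9 for KLF11 and 5.31 for KLF3, with KLF6 next at 4.32. KLF16, KLF15, KLF10, KLF7 and KLF12 lay lower, at 4.15, 1.99, 1.65, 0.494 and 0.208. These levels depend on how much of each transcript is annotated, and KLF9 has only 732 bases of annotated exon against 3982 for KLF6. The exon lengths came from RefSeq, whereas the reads were counted on Ensembl genes, so that all values per kb are approximate. KLF2 alone held 43.2% of the summed mean counts of the 12 genes and the 3 members together 67.7%.

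**Figure D4:**
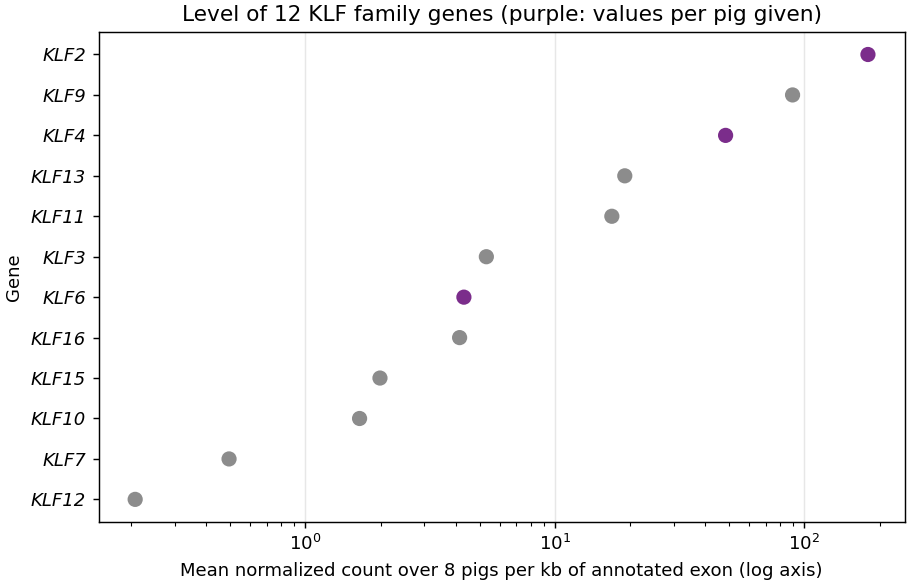
Authors' mean normalized count over the 8 pigs per kb of annotated exon (horizontal, log axis) for the 12 KLF genes with a mean count, 1 row per gene. Purple points are KLF2 (180), KLF4 (48.3) and KLF6 (4.32), the genes with values per pig, and grey points are the other 9; no error can be given because these are single means over all pigs.

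On the same scale per kb of exon, the members kept 1 order in both breeds. KLF2 was at 107 ± 29.5 in AL and 252 ± 77.1 in BI, KLF4 at 30.8 ± 11.0 and 65.8 ± 21.9, and KLF6 at 2.38 ± 1.41 and 6.26 ± 1.49 (SD, n = 4 each). KLF2 exceeded KLF4 and KLF4 exceeded KLF6 in each of the 8 pigs on this scale. The mean of KLF4 in BI fat lay below the mean of KLF2 in AL fat, although the highest BI pig for KLF4 exceeded the lowest AL pig for KLF2.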

How the data were processed

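Per the submitters' processing notes and the study's methods, the authors trimmed the reads with Trim Galore 0.5.0, aligned them to Sscrofa11.1 with HISAT2 2.1.0, sorted them with SAMtools 1.9, counted them per gene with HTSeq 0.11.1 and normalized them with DESeq2. The libraries were stranded, and the strand setting of the counting is not given in the sources used here. The deposited signal per pig is the read count per gene over the library's size factor, which the authors gave for the 458 genes called different, and the authors' mean count of each of the 10710 genes is its mean over the 8 pigs. The deposited columns of fold changes, standard errors, test statistics and p-values are the authors' comparison of the breeds and were not used.

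Size factors were recovered from the step between values, with 100% of values whole within 0.01 read. Counting intervals are exact Poisson 95% intervals and cover counting error only. The log2 FC used a pseudocount of 1, which understates the change of KLF6. Exact permutation tests enumerated all 70 divisions of the 8 pigs, and a p-value is the share of divisions with a difference of means at least as large. Named were the members, all genes of the lists that had values per pig, and the 5 genes with the smallest RMS difference from each member. Members and lists were chosen with earlier results of these data known. Of the 10710 identifiers, 8923 (83.3%) had a symbol, and 5 genes with values per pig but no name, JUN among them, were named by identifier. Positions and sequences came from the RefSeq annotation and genome Sscrofa11.1, and a motif match is a description of letters only.

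Alternatives were pseudocounts of 0.1 and 10, 2 rescalings over the 458 genes, ratios of means, differences of medians, the exact rank-sum test, limma, edgeR and DESeq2 over the 458 genes, a minimum mean of 50 normalized counts, another centring, and leaving out each pig. For the number of separated genes and for the nearest genes, leaving out pigs was chosen after seeing the data. The exact test, the recovery of size factors, the rule of no overlap and the models (limma, edgeR and DESeq2) were tested on simulated data. The other calculations were not. Python 3.11.15, NumPy 2.4.6, pandas 2.3.3, SciPy 1.17.1, Matplotlib 3.10.9, pysam 0.24.0 and R 4.3.3 with limma 3.58.1, edgeR 4.0.16 and DESeq2 1.42.0 were used.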

Additional observations from a re-analysis of the deposited data

Results flagged for a closer look

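No value of KLF2, KLF4 or KLF6 stood far enough from the other pigs of its breed to be singled out. The nearest was KLF6 in AL44, whose gap to the next AL pig was 0.822 of the range of the breed, just under the critical value of Dixon's test for 4 pigs. Among the 38 named genes, 9 of 76 groups of 4 pigs held such a pig, and chance gives about 5%. For immediate-early genes these were JUND in BI37 (360 normalized counts, the other BI pigs 524 to 549), FOSB in BI37 (195, the others 283 to 291), EGR1 in BI36 (404, the others 284 to 299) and PER1 in AL52 (98.9, the others 43.5 to 50.5). For genes of mature adipocytes they were LEP in BI36 (86.0, the others 24.2 to 32.1), ACLY in AL44 (35.6, the others 91.6 to 94.3) and in BI36 (49.1, the others 11.0 to 16.7), and ME1 in AL44 (44.4, the others 68.8 to 70.4) and in BI36 (25.5, the others 10.7 to 12.5). AL44, low in ACLY and ME1, is also the AL pig with the highest KLF6 and ATF3, whereas BI36 was not extreme in any KLF gene. The cause of these values was not tested.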

How the results depend on the processing

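KLF2 and KLF4 kept their direction and their call under each of the 10 alternatives that used all pigs, between −1.86 and −1.17 and between −1.74 and −1.02. Most of these could not have changed the call. Where the breeds do not overlap, a pseudocount, the ratio of means and the rank-sum test give the same exact p, which the medians reused. The models called nearly all of the 458 genes, all of which had been called different before in the same pigs. KLF6 kept its direction under the same 10, between −2.0 and −0.87, and passed the threshold with the median of ratios (−1.88) and the upper quartile (−2.0) recomputed over the 458 genes and with limma (−1.41), edgeR (−1.42) and DESeq2 (−1.44). These rescalings use only genes called different, and shifted the median log2 FC of all 458 by −0.51 and −0.64, so that the genes without overlap were 171 lower and 102 higher in AL (273 in all), and 176 lower and 60 higher (236 in all), in place of 143 and 221. Leaving out 1 pig in turn gave −1.39 to −1.04 for KLF2, −1.28 to −0.90 for KLF4, −1.73 to −1.21 for KLF6, −0.24 to −0.0082 for the ratio of KLF2 to KLF4, −0.52 to 0.18 for KLF6 to KLF2, −0.53 to 0.074 for KLF6 to KLF4, and 368 to 411 genes without overlap. The calls of KLF2 and KLF4 lost in this way went to p = 0.057 (exact permutation test), although leaving out a pig cannot make the others overlap: with 3 pigs against 4 the smallest p is 0.029, and the opposite extreme split can differ by as much. The ratios of KLF6 to KLF2 and to KLF4 reversed with a pseudocount of 10 (0.31 and 0.16) and without AL63 (0.18 and 0.074), and none of their values passed the test. Of the 15 places among the nearest genes, 9 were kept with centring within each breed and 7 to 12 without 1 pig. No paired analysis was possible because the breeds share no replicate numbers. Depth limits KLF6 most, at 4 to 12 reads per AL pig.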
